A study of Mus musculus with 6 samples.

Results

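The 7 genes described here encode the SOX trio of cartilage, Sox9, Sox5 and Sox6, together with Sox8, Trps1, Nkx3-2 and Wwp2, which act beside the trio in chondrocytes. They were taken by gene symbol from a table of 43346 mouse genes, and all 7 were found and had enough counts to be tested. RNA came from epiphyseal chondrocytes, the cells of the cartilage at the ends of growing long bones, freed by collagenase from 5-day-old mice. There were 3 Girk3-null and 3 wild type (WT) libraries, all labelled C57BL/6 and male, and polyadenylated RNA was sequenced. Girk3, the product of Kcnj9, is one subunit type of potassium channels that open when G protein-coupled receptors signal. The labels call the mutants Girk3-/- or Girk3 KO and do not say how the allele was made. The question was how loss of the channel subunit bears on chondrocyte transcripts.

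SOX9 is the transcription factor that commits mesenchymal cells to cartilage and switches on the genes of its matrix. It works as a pair of molecules on enhancers such as that of Col2a1, while SOX5 and SOX6, which lack an activation domain of their own, bind nearby and strengthen its action. TRPS1 and NKX3-2 are repressors that hold back hypertrophy, the enlargement that precedes mineralisation, and WWP2 is a ubiquitin ligase whose gene is itself a known target of SOX9 in cartilage.

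Total counts were 34279516 to 60392837 per library, and Kcnj9 had 0 counts in all 6, so it could not check the genotype labels. In 5 libraries the sex label went against the transcripts: counts of 4 Y-linked genes summed to 16088 for Girk3-null replicate 1 and to 0 to 7 for each of the others, while Xist had 19 counts in that library and 67346 to 144825 in the others. For the 7 regulators and the medians of the gene lists, differences are therefore also given without Girk3-null replicate 1. They are not given in this way for single genes of those lists. The cartilage label was borne out by its markers, since Col2a1 alone took 5.04% to 8.25% of counts in Girk3-null libraries and 3.12% to 5.33% in WT libraries. Markers of other cell types were all below Col2a1, yet some were high. The stromal marker Dcn averaged 1694 ± 741 RPKM (explained below) in Girk3-null and 1060 ± 354 RPKM in WT libraries (SD, n = 3 each). Its highest value, 2550 RPKM, was in Girk3-null replicate 1, and the groups overlapped. The chondrocyte marker Acan averaged 1041 RPKM in Girk3-null and 854.7 RPKM in WT libraries. The numbers in the sample titles fall below 200 for Girk3-null replicate 1 and WT replicates 1 and 2, and above 200 for Girk3-null replicates 2 and 3 and WT replicate 3. The labels do not say what these numbers mean. Levels below are RPKM, counts scaled to gene length and sequencing depth, computed from the counts with TMM scaling of the libraries. In such bulk RNA, fewer cells of a type and less RNA per cell cannot be told apart.

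None of the 7 regulators passed an adjusted p of 0.05 over all 17554 genes tested with edgeR's quasi-likelihood test, where 1 gene, or 0.0057%, passed. The log2 fold changes of Girk3-null over WT lay between -0.13 and 0.56, with a median of 0.32 against 0.01 for all tested genes. They were positive for 6 of the 7 genes and for 51.8% of all genes. With library totals alone as scaling, which moved the median of all genes to -0.09, 4 of the 7 were positive and their median was 0.22. At an unadjusted p under 0.05 there was 1 of the 7, Wwp2, which was higher in Girk3-null libraries. At that threshold 7.49% of all genes were higher and 7.02% lower, and Wwp2 missed it under several other settings given with its values. DESeq2 called 0 of the 7, with 2.14% of all genes called, and limma-voom called 0 of the 7.

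The order of levels per length was the same at its ends in every library. Wwp2 stood highest, then Sox9, then Trps1, with Nkx3-2 lowest. Sox5, Sox6 and Sox8 lay between Trps1 and Nkx3-2, and their order changed from library to library, so these 3 could not be ranked beyond their spread. Over all 6 libraries Wwp2 was at the 98.9 percentile of tested genes and Sox9 at the 96.9 percentile. Trps1 was at the 80.3, Sox6 at the 63.6, Sox5 at the 62.8, Sox8 at the 59.6 and Nkx3-2 at the 34.3 percentile. The listed lengths cover 14376 bases for Sox5 and 13380 for Trps1, and reads from shorter isoforms of such genes give a low value per length.

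**Figure D1:**
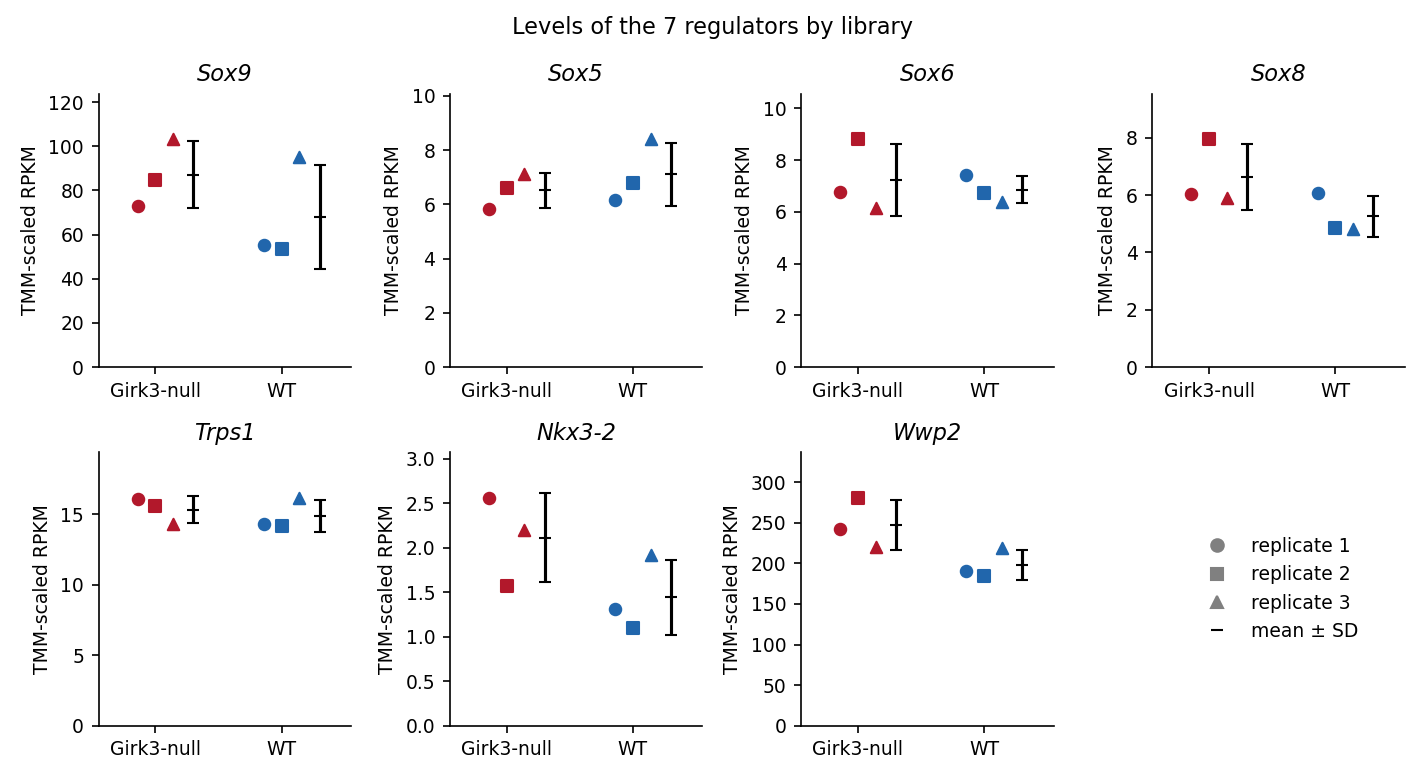
TMM-scaled RPKM of the 7 genes in each library, with 1 panel per gene, Girk3-null in red and WT in blue, symbols for the replicates and bars for mean ± SD (n = 3 each). Every axis starts at 0. Only Wwp2 separates the genotypes on this scale, with 219.8 in the lowest Girk3-null against 218.4 in the highest WT library (the groups overlap in the deposited RPKM), and Sox9 in WT replicate 3, at 95.3, lies inside the Girk3-null range.

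Sox9 (ENSMUSG00000000567, chromosome 11, 112782224 to 112787760, mm10) measured 73.0, 84.9 and 103.3 RPKM in Girk3-null replicates 1, 2 and 3, against 55.5, 53.5 and 95.3 RPKM in WT replicates 1, 2 and 3. A pair of WT libraries lay below all Girk3-null libraries, while WT replicate 3 lay above 2 of them, so the groups overlapped. The means were 87.1 ± 15.2 RPKM in Girk3-null and 68.1 ± 23.6 RPKM in WT libraries (SD, n = 3 each). In edgeR the log2 fold change was 0.36 (SE 0.23, adjusted p = 0.480), and its 95% interval reached from -0.18 to 0.89. Changes from a 1.85-fold higher level to 0.883 of the WT level are therefore inside the interval.

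The size of that difference rested on single libraries. Without WT replicate 3 the log2 fold change of Sox9 was 0.68, with an adjusted p of 0.0798 in edgeR (0.0798 to 0.876 over 14 alternative settings). Leaving out WT replicate 2 gave 0.21, WT replicate 1 gave 0.23 and Girk3-null replicate 3 gave 0.21. Without Girk3-null replicate 1 it was 0.47. Among libraries with title numbers below 200, Sox9 was higher in the Girk3-null library (73.0 RPKM) than in both WT libraries (55.5 and 53.5 RPKM). Among those above 200, the WT library, at 95.3 RPKM, lay between the Girk3-null libraries, at 84.9 and 103.3 RPKM. With the title number range as a covariate the log2 fold change was 0.20 (adjusted p = 0.530 in edgeR).

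Marker levels of other cell types also differed between these libraries. The 10 endothelial markers averaged 1.499, 3.07 and 3.14 log2 CPM in Girk3-null replicates 1, 2 and 3, against 3.87, 4.30 and 3.50 in WT replicates 1, 2 and 3. Every one of the 10 had a negative log2 fold change. Of these edgeR called 0 and DESeq2 4, against 0.0057% and 2.14% of all genes. The 10 summed to 45.4 to 121 CPM in Girk3-null and 153 to 233 CPM in WT libraries. The 10 erythroid markers averaged 0.69, 2.35 and 1.04 log2 CPM in Girk3-null libraries and 2.82, 3.25 and 1.197 in WT libraries. WT replicates 1 and 2, where Sox9 was lowest, were the highest libraries for both lists. No endothelial or erythroid marker was at 0 in any library. Skeletal muscle markers summed to 19.1 to 32.9 CPM in Girk3-null and 32.7 to 72.9 CPM in WT libraries. The part of these cells in the levels of Sox9 and the other 6 regulators was not tested.

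**Figure D2:**
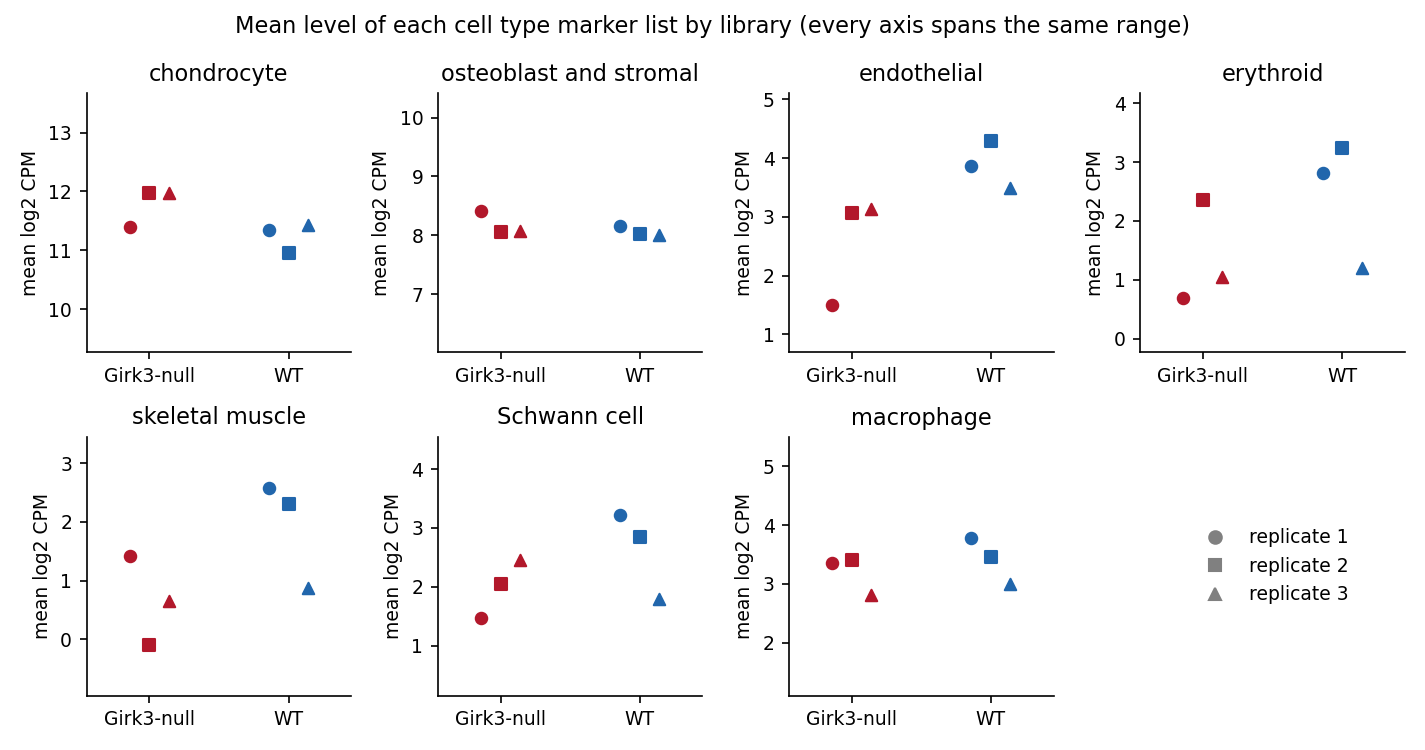
Mean log2 CPM of 7 lists of cell type markers in each library, Girk3-null in red and WT in blue, with symbols for replicates 1 to 3. Endothelial markers reach 3.14 at most in Girk3-null and 3.50 at least in WT libraries, and erythroid markers stand highest in WT replicates 1 and 2, at 2.82 and 3.25.

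Sox5 (ENSMUSG00000041540, chromosome 6, 143828425 to 144781977) was the one regulator of the 7 with a negative difference under TMM scaling. It measured 5.84, 6.59 and 7.11 RPKM in Girk3-null replicates 1, 2 and 3, against 6.16, 6.77 and 8.41 RPKM in WT replicates 1, 2 and 3. The highest value was again in WT replicate 3, and the groups overlapped. The log2 fold change was -0.13 (SE 0.14, adjusted p = 0.674 in edgeR), and its 95% interval ran from -0.44 to 0.19. Without WT replicate 3 the sign turned, at 0.01. Without Girk3-null replicate 1 it was -0.05. Of the 6 RNAs listed inside Sox5, 4 had 0 counts in every library and the other 2, Sox5it and Sox5os3, had 7 and 5 counts in all, so they add little to its 26815 counts.

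Sox6 (ENSMUSG00000051910, chromosome 7, 115471344 to 116038744), the partner of SOX5 and also a regulator of red cell and muscle genes, measured 6.77, 8.82 and 6.15 RPKM in Girk3-null libraries, against 7.42, 6.75 and 6.40 RPKM in WT libraries. Girk3-null replicate 2 was highest and Girk3-null replicate 3 lowest, so the WT values lay within the Girk3-null range. The log2 fold change was 0.08 (SE 0.14; adjusted p = 0.807 in edgeR, 95% interval -0.25 to 0.41). Its sign was negative without Girk3-null replicate 2 (-0.08) and with library totals alone (-0.03). Without Girk3-null replicate 1 it was 0.13.

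Sox8 (ENSMUSG00000024176, chromosome 17, 25565892 to 25570686), the closest relative of SOX9 in this set and a member of the same SoxE group, measured 6.06, 7.95 and 5.91 RPKM in Girk3-null libraries, against 6.07, 4.86 and 4.84 RPKM in WT libraries. WT replicate 1 lay above 2 of the Girk3-null libraries. The log2 fold change was 0.34 (SE 0.16, adjusted p = 0.368 in edgeR), with a 95% interval of -0.04 to 0.71. It stayed positive under all 14 alternative settings, at 0.19 to 0.45, and was 0.40 without Girk3-null replicate 1.

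Within a library, the proportion of one factor to another does not depend on how libraries are scaled. Per length, Sox5 stood at 8.0%, 7.76% and 6.89% of the Sox9 level in Girk3-null replicates 1, 2 and 3, against 11.1%, 12.7% and 8.82% in WT replicates 1, 2 and 3. Each Girk3-null library was below every WT library. The means were 7.55% ± 0.585 in Girk3-null and 10.9% ± 1.93 in WT libraries (SD, n = 3 each), a log2 difference of -0.51. An exact two-sided permutation test gave p = 0.1, the smallest that 3 against 3 allows, and 0.3 adjusted over the 3 ratios compared. This test could therefore not reach 0.05 with these libraries. In edgeR the log2 fold change was 0.36 for Sox9 and -0.13 for Sox5. With library totals alone these were 0.26 and -0.23, and with the title number covariate 0.20 and -0.22. How the difference was shared between Sox9 and Sox5 therefore depended on the setting. How many other genes separate the genotypes in their ratio to Sox9 was not counted.

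The other ratios overlapped between the genotypes. Sox6 stood at 9.27%, 10.4% and 5.96% of Sox9 in Girk3-null libraries and at 13.4%, 12.6% and 6.71% in WT libraries (log2 difference -0.33, exact permutation p = 0.5, adjusted 0.75). Sox8 stood at 8.29%, 9.37% and 5.72% of Sox9 in Girk3-null libraries and at 10.9%, 9.09% and 5.07% in WT libraries (log2 difference -0.06, exact permutation p = 0.9, adjusted 0.9). Both ratios were lowest in Girk3-null replicate 3 and WT replicate 3, the libraries with the most Sox9.

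**Figure D3:**
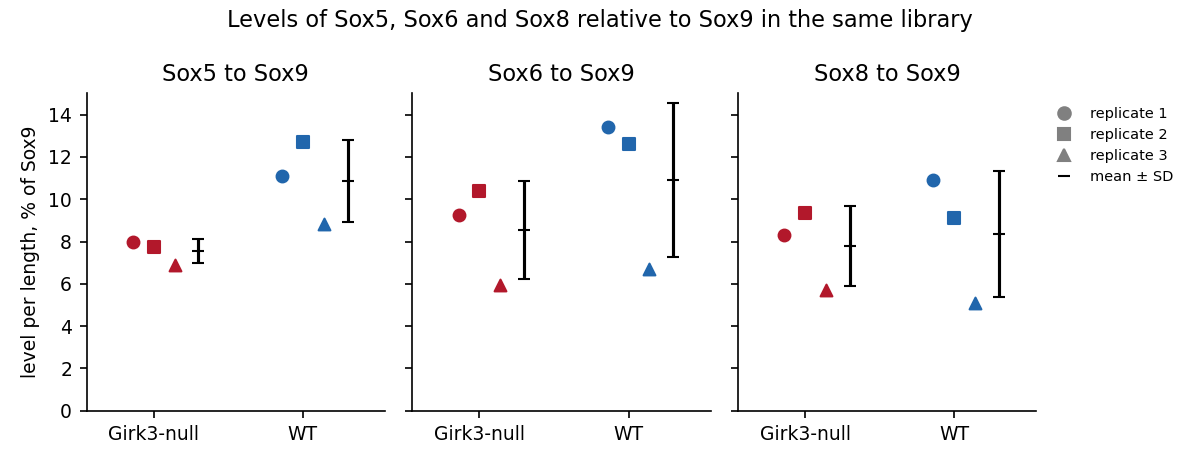
Level per length of Sox5, Sox6 and Sox8 as a percentage of the Sox9 level in the same library, Girk3-null in red and WT in blue, symbols for the replicates and bars for mean ± SD (n = 3 each). Sox5 to Sox9 is 6.89% to 8.0% in Girk3-null and 8.82% to 12.7% in WT libraries, while the other pair of ratios overlap.

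Trps1 (ENSMUSG00000038679, chromosome 15, 50654752 to 50890463) encodes a GATA-type zinc finger repressor whose loss in humans and mice disturbs growth plate cartilage. It was the steadiest of the 7 between genotypes, at 16.1, 15.6 and 14.3 RPKM in Girk3-null libraries, against 14.3, 14.1 and 16.2 RPKM in WT libraries. The values of the genotypes were interleaved. The log2 fold change was 0.04 (SE 0.11; adjusted p = 0.860 in edgeR). The 95% interval was -0.20 to 0.28, which leaves room for levels from 0.873 to 1.22 of the WT level. With library totals alone the difference was -0.06, and without Girk3-null replicate 1 it was 0.01. Mir1907, which lies over an exon of Trps1, had 6 to 14 counts per library against 6136 to 12776 for Trps1.

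Nkx3-2 (ENSMUSG00000049691, chromosome 5, 41761483 to 41764501), a homeobox repressor of Runx2, had the fewest counts of the 7, at 118 to 261 per Girk3-null and 103 to 135 per WT library. It measured 2.56, 1.57 and 2.196 RPKM in Girk3-null libraries, against 1.31, 1.10 and 1.92 RPKM in WT libraries. WT replicate 3 lay above Girk3-null replicate 2 and below the other Girk3-null libraries. The log2 fold change of 0.56 was the largest of the 7 (SE 0.29, adjusted p = 0.386 in edgeR). The 95% interval of -0.10 to 1.21 was also the widest. Without Girk3-null replicate 1, the library with the highest value, it was 0.39, and without WT replicate 3 it was 0.81 (adjusted p = 0.149 in edgeR).

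Wwp2 (ENSMUSG00000031930, chromosome 8, 107436398 to 107558594) was the most abundant of the 7. It measured 241.97, 281.1 and 219.8 RPKM in Girk3-null replicates 1, 2 and 3, against 191.0, 184.2 and 218.4 RPKM in WT replicates 1, 2 and 3. Each Girk3-null library was above every WT library, by 219.8 against 218.4 at the closest point. Groups that did not overlap and were higher in Girk3-null libraries were found for 9.86% of all genes. The means were 247.6 ± 31.1 RPKM in Girk3-null and 197.9 ± 18.1 RPKM in WT libraries (SD, n = 3 each), a 1.25-fold difference.

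The log2 fold change of Wwp2 was 0.32 (SE 0.14, 95% interval 0.004 to 0.64). In edgeR its unadjusted p was 0.0477 and its adjusted p 0.341. DESeq2 gave an unadjusted p of 0.0286, limma-voom one of 0.0388 and edgeR without the filter on low counts one of 0.0392. The unadjusted p was 0.0511 with the size factors of DESeq2 in edgeR, 0.146 with library totals alone and 0.0834 with the title number covariate. It was 0.167 and 0.163 in limma on the RPKM, and 0.0271 to 0.189 in edgeR when each library was left out. Its log2 fold change was positive under all 14 alternative settings, at 0.21 to 0.40. Without Girk3-null replicate 1 it was 0.34, and without Girk3-null replicate 2 it was 0.22. The separation of the groups rested on the scaling. In the deposited RPKM, which carry no TMM factor, Girk3-null replicate 3 stood at 205.6 and WT replicate 3 at 211.8, so the groups overlapped. Wwp2 counts were 30171 to 61373 per Girk3-null and 38314 to 42866 per WT library, so counting error is small beside the spread between libraries.

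The gene also carries a microRNA, Mir140, a cartilage microRNA whose primary transcript is shared with Wwp2 in mouse chondrocytes. Its hairpin lies at chromosome 8, 107551244 to 107551313 on the plus strand, over an exon of a retained-intron transcript of Wwp2 in GENCODE M21. The hairpin and the mature 3p strand are shown because their locus has a row of its own in the table, with RefSeq sequences on GRCm38.p6, 5′ to 3′. Capitals mark the mature strand in the hairpin and the seed, bases 2 to 8, in the mature sequence.
Mir140 hairpin: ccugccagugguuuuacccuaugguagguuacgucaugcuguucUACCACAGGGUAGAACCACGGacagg
mmu-miR-140-3p: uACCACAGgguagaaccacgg

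The Mir140 row had 391, 357 and 126 counts in Girk3-null replicates 1, 2 and 3, against 214, 236 and 278 counts in WT replicates 1, 2 and 3. These are fragments of polyadenylated RNA over a stretch of 70 bases and not mature microRNA, which such libraries do not capture. They came to 0.418% to 0.680% of the Wwp2 count in Girk3-null and 0.551% to 0.726% in WT libraries. The groups overlapped, and edgeR gave a log2 fold change of 0.26 (SE 0.29, adjusted p = 0.681). Rps26-ps1, within the Wwp2 interval on the opposite strand, had 2.87% of the counts of Wwp2 and overlapped none of its exons.

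**Figure D4:**
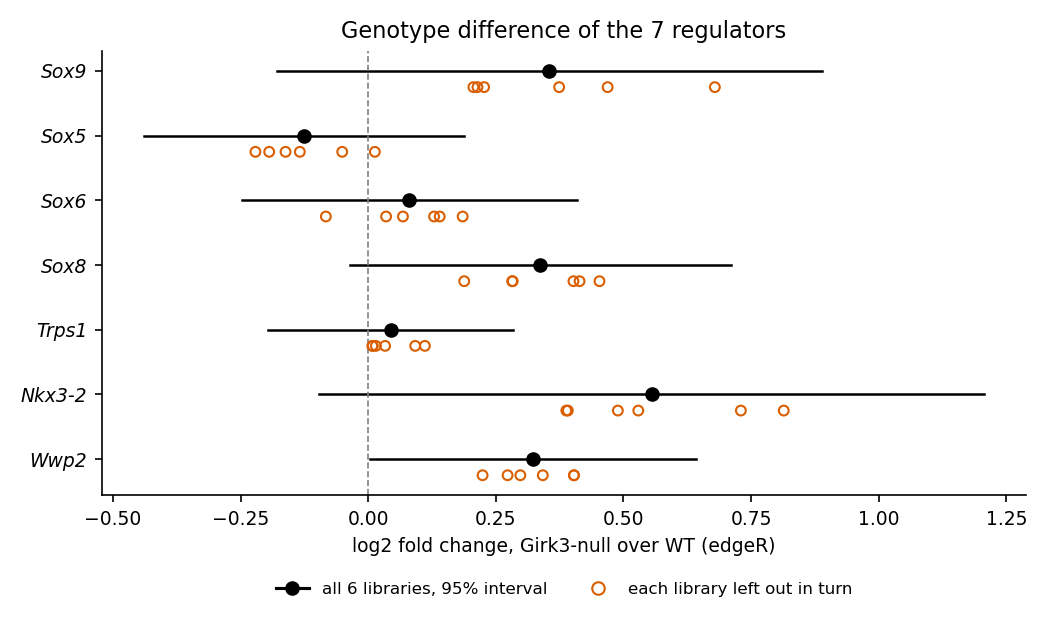
Log2 fold change of Girk3-null over WT for the 7 genes from edgeR, with filled points and 95% intervals for all 6 libraries and open points for each library left out in turn. All intervals but that of Wwp2 include 0, and the points of Sox9 spread from 0.21 to 0.68.

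The genes whose library pattern was most like that of each trio member were found by the Pearson correlation of log2 CPM over the 6 libraries, among 9842 genes of at least moderate level. They are a description with no test, since so few libraries make high values common. For Sox9 they were Gm20431 (r = 0.998), the collagen VI gene Col6a2 (0.995) and the deadenylase subunit gene Cnot3 (0.991), and 318 genes had an r above 0.9. For Sox5 they were Cobll1 (0.991), Zbtb43 (0.985) and the neurotrophin receptor gene Ntrk2 (0.9747), with 66 genes above 0.9. For Sox6 they were Mrps26 (0.995), Farp2 (0.977) and Ifitm2 (0.974), with 30 genes above 0.9. The trio members were not among each other's nearest genes, and their patterns differed: Sox9 and Sox5 were both high in WT replicate 3, whereas Sox6 was highest in Girk3-null replicate 2.

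Cartilage matrix and secreted genes known as targets of SOX9, SOX5 and SOX6 stood on the same side as Sox9. This list and those below were chosen with earlier results of these data known. Of 20 listed genes all were tested, 19 had a positive log2 fold change, and the median was 0.57 against 0.01 for all genes. In edgeR 0 of the 20 passed over all genes and 10, all higher, had an unadjusted p under 0.05, against 7.49% of all genes. DESeq2 called 6 of the 20, with 2.14% of all genes called, and limma-voom 0. The 4 with the smallest p-values were Matn4, Cnmd, Snorc and Col27a1, each with an adjusted p of 0.291 in edgeR. Matn4, a matrilin of the cartilage matrix, measured 8.09, 8.09 and 8.50 RPKM in Girk3-null libraries, against 5.64, 4.79 and 5.35 RPKM in WT libraries (log2 fold change 0.65). Col27a1, a fibrillar collagen gene, measured 94.2, 100.2 and 90.5 RPKM in Girk3-null libraries, against 49.7, 38.7 and 70.0 RPKM in WT libraries (0.85). Cnmd, which encodes chondromodulin and is listed as Lect1, and Snorc, listed as 3110079O15Rik, had log2 fold changes of 0.67 and 1.06.

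The library order within these targets was not that of Sox9. The list averaged 9.63, 10.1 and 9.98 log2 CPM in Girk3-null replicates 1, 2 and 3, against 9.46, 9.16 and 9.51 in WT replicates 1, 2 and 3. Every Girk3-null library was above every WT library for the list, while Sox9 was higher in WT replicate 3 than in a pair of Girk3-null libraries. Acan, the aggrecan core protein gene, and Hapln1, its link protein gene, named outside the naming rule after their values were seen, had log2 fold changes of 0.28 and -0.06 with adjusted p-values of 0.604 and 0.860 in edgeR. Leaving out each library in turn gave list medians of 0.41 (without WT replicate 2) to 0.70 (without Girk3-null replicate 1). The number positive was 16 of 20 without Girk3-null replicate 2, 20 of 20 without Girk3-null replicate 1 and 19 of 20 otherwise. With the title number range as a covariate the list median was 0.39, with 19 of 20 positive. With library totals alone it was 0.46, with 18 of 20 positive. The mean of the endothelial markers was lower in every Girk3-null library. Their median log2 fold change was -1.19 (-0.79 without Girk3-null replicate 1), and their part in the levels of the matrix genes was not tested.

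Transcription factors of hypertrophy and bone, the programme that TRPS1 and NKX3-2 restrain, were also positive. The log2 fold changes of all 11 listed genes lay above 0 (median 0.26), and 10 of 11 were positive with library totals alone. In edgeR 0 passed over all genes and 3, all higher, had an unadjusted p under 0.05, against 7.49% of all genes. DESeq2 called 2 of 11, with 2.14% of all genes called, and limma-voom 0. Dlx5, a homeobox activator of bone and hypertrophic genes, measured 4.79, 4.06 and 4.36 RPKM in Girk3-null libraries, against 2.54, 1.95 and 2.69 RPKM in WT libraries (log2 fold change 0.88, adjusted p = 0.291 in edgeR). Mef2c, a driver of hypertrophy, and Sp7, the osterix gene of bone-forming cells, had log2 fold changes of 0.67 and 0.56. For 3 of the 11, Dlx5, Mef2c and Sp7, each Girk3-null library was above every WT library, against 9.86% of all genes in that direction. Runx2, the master factor of hypertrophy and bone and the known target of NKX3-2 repression, measured 13.3, 10.5 and 12.8 RPKM in Girk3-null libraries, against 8.16, 7.06 and 12.2 RPKM in WT libraries (0.42, adjusted p = 0.361 in edgeR). As with Sox9, its value in WT replicate 3 lay inside the Girk3-null range. The size of the list's median rested on single libraries: it was 0.13 without Girk3-null replicate 3, 0.42 without Girk3-null replicate 2 and 0.34 without Girk3-null replicate 1. With the title number range as a covariate 8 of the 11 were positive, with a median of 0.26. Osteoblast and stromal markers, which share Sp7, averaged 8.06 to 8.41 log2 CPM in Girk3-null and 8.01 to 8.15 in WT libraries.

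**Figure D5:**
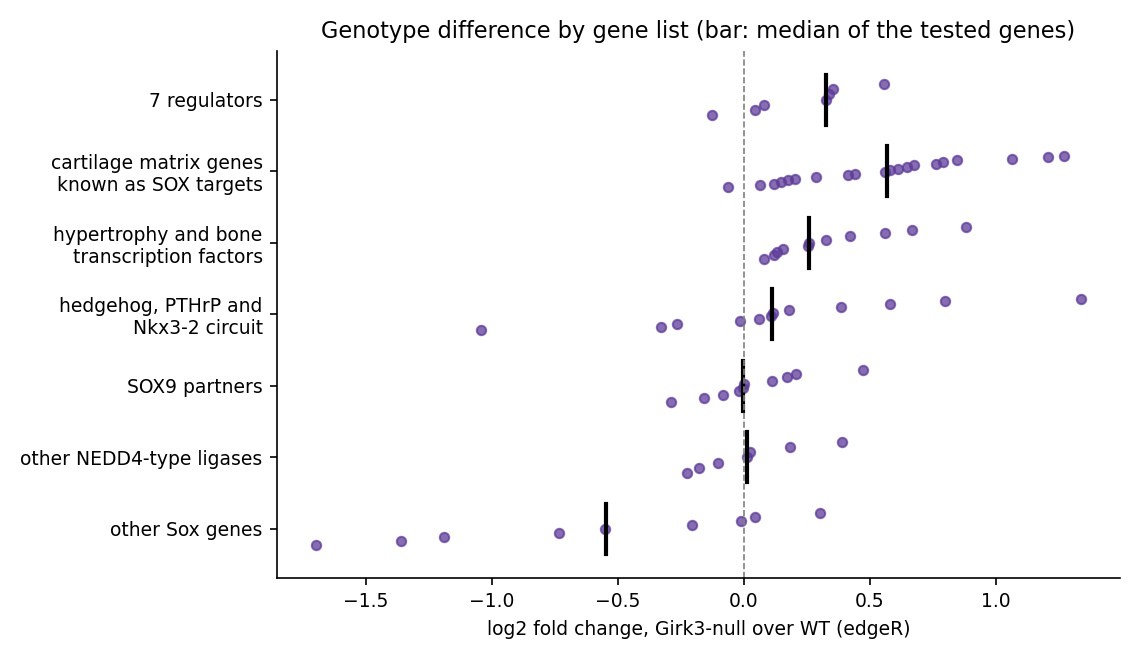
Log2 fold changes of Girk3-null over WT from edgeR for the 7 regulators and 6 gene lists, with 1 point per tested gene and a bar at the median of each list. The medians are 0.32 for the regulators, 0.57 for the known SOX targets and -0.55 for the other Sox genes.

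Genes of the hedgehog, parathyroid hormone-related protein (PTHrP) and Nkx3-2 circuit had a median of 0.11 over 12 tested of 14 listed. edgeR called 0 of them, with 4 at an unadjusted p under 0.05, against 14.5% of all genes in either direction. DESeq2 called 1 of the 12, with 2.14% of all genes called, and limma-voom 0. With library totals alone the median was 0.01. It was 0.28 without WT replicate 3, 0.06 without WT replicate 2 and 0.16 without Girk3-null replicate 1. Pth1r, the receptor for PTHrP, measured 49.5, 40.2 and 31.5 RPKM in Girk3-null libraries, against 16.5, 11.8 and 19.7 RPKM in WT libraries (log2 fold change 1.34, adjusted p = 0.291 in edgeR). Gli2, a transducer of hedgehog signals, and Ihh, the hedgehog ligand of prehypertrophic cells, had log2 fold changes of 0.80 and 0.58. Meox1, a homeobox gene of the somites, had -1.04, with WT replicate 3 close to the Girk3-null libraries at 1.04 RPKM. Pax1 and Pax9, named outside the naming rule as known activators of Nkx3-2 in the somite, stayed under 1 RPKM in every library.

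The SOX9 partners and the relatives of Wwp2 were centred near 0. The 10 listed co-activators and partners of SOX9 had a median of -0.002, with 0 called and 0 at an unadjusted p under 0.05 in edgeR. Those with the smallest p-values were the mediator subunit gene Med12 (log2 fold change 0.21), Smad2 (-0.29), Zfp219 (0.47) and Arid5a (-0.16). The 7 tested of 8 listed ubiquitin ligases of the NEDD4 family other than Wwp2 had a median of 0.01, again with 0 called and 0 at an unadjusted p under 0.05 in edgeR. DESeq2 and limma-voom called 0 in both lists. With library totals alone the medians were -0.11 for the partners and -0.09 for the ligases, against -0.09 for all genes. Without Girk3-null replicate 1 they were 0.04 for the partners and 0.03 for the ligases. Smurf2 and Wwp1 had -0.22 and -0.18, and Nedd4 and Hecw2 had 0.18 and 0.39. Nedd4, at 111.9 to 128.4 RPKM in Girk3-null and 103.2 to 115.2 RPKM in WT libraries, was the ligase nearest to Wwp2 in level among the 7.

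The other Sox genes pointed the other way. Of 16 listed 9 were tested, 2 of these had a positive log2 fold change, and the median was -0.55. In edgeR 0 passed over all genes and 2, both lower, had an unadjusted p under 0.05, against 7.02% of all genes. DESeq2 and limma-voom called 0. Leaving out Girk3-null replicate 1 gave a median of -0.35 and Girk3-null replicate 3 one of -0.87, and it stayed negative under each scaling tried. The SoxF genes of blood vessel lining accounted for the 2, Sox17 (-1.70) and Sox7 (-0.73), and the related Sox18 had -1.19. Sox7 measured 1.13, 1.92 and 2.27 RPKM in Girk3-null libraries, against 2.92, 3.49 and 2.36 RPKM in WT libraries. The groups did not overlap for these 3 genes, as for 10.2% of all genes in that direction. They also did not overlap for 8 of the 10 endothelial markers, whose mean was lower in each Girk3-null library. Sox11, a gene of progenitor cells, had -0.55. Sox4, Sox13 and Sox10 are named outside the naming rule, after their values were seen, for their level or kinship to the 7. Among the 9, Sox4 was the most abundant, at 6.74 ± 1.18 RPKM in Girk3-null and 6.79 ± 0.325 RPKM in WT libraries (SD, n = 3 each), close to Sox5, Sox6 and Sox8. Sox13, the remaining relative of SOX5 and SOX6, measured 1.16 ± 0.261 RPKM in Girk3-null and 0.939 ± 0.162 RPKM in WT libraries, and Sox10, the SoxE gene of Schwann cells, stood at 0.387 to 1.23 RPKM over all libraries.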

How the data were processed

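Per the file headers, the authors deposited 1 table that pairs raw gene counts with RPKM for each library. The submitters' processing notes name bcl2fastq 2.19.0, STAR 2.5.2b and mm10. Which tool counted reads, with which annotation and strand setting, is not given in the sources used here. Counts of overlapping or antisense genes are uncertain for that reason. The deposited RPKM equalled the count over the column total and over a length 1 base above the listed one, within 0.1%. All 37 mitochondrial genes were at 0.

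Genotype labels gave the groups, with replicate numbers in deposit order. Genes passing filterByExpr (minimum count 10, minimum total 15) were tested with edgeR 4.0.16 (quasi-likelihood, TMM factors, genotype only) in R 4.3.3, with Benjamini-Hochberg adjustment over 17554 genes. Levels are RPKM from the same TMM-scaled counts. Standard errors are the absolute log2 fold change over the square root of F. Log2 CPM had a prior count of 2, and likeness was searched at a mean of at least 3. Ratios were tested with SciPy 1.17.1. limma 3.58.1 and DESeq2 1.42.0 were alternatives. P-values measure the spread between libraries that the submitters call biological replicates.

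The members and lists were chosen with earlier results of these data known. Named are the 7 members, up to 4 genes per list with the smallest p-values, the 3 genes most like Sox9, Sox5 and Sox6, and RNAs overlapping a member; exceptions are marked where they are named. Of 138 distinct list genes 134 matched by symbol and 4 by gene identifier. edgeR was tested on simulated counts for the Girk3-null versus WT comparison (17554 genes, 200 changed per run, 5 runs). It recovered 77.4% of 2-fold and 99.2% of 4-fold changes, with 5.46% of calls false. The simulation drew the spread of each gene from the fitted trend alone and planted changes only above a set mean level. These shares may therefore not hold for the libraries themselves.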

Additional observations from a re-analysis of the deposited data

How the results depend on the processing

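None of the 7 regulators was called by edgeR or under any of the 14 alternative settings. Sox9, Sox8, Nkx3-2 and Wwp2 kept a positive sign throughout. Sox6 turned to -0.029 with library totals alone, -0.041 on log2(RPKM + 0.1) and -0.035 on log2(RPKM + 1), and Trps1 to -0.059, -0.062 and -0.059 under the same 3 settings. By construction, these settings carry no TMM factor. Leaving out each library in turn gave -0.083 to 0.185 for Sox6 and -0.221 to 0.013 for Sox5. For the log2 difference in the ratio of Sox8 to Sox9 it gave -0.386 to 0.168. The cause of these changes in sign was not tested. The log2 difference in the ratio of Sox5 to Sox9 was -0.654 to -0.393 when each library was left out. Its sign was fixed beforehand, because the groups do not overlap. Over all genes, DESeq2 called 339, edgeR without the filter on low counts 53, and limma-voom, library totals alone, both RPKM settings and the title number covariate 0 each, against 1. Leaving out each library gave 0 to 74, with 74 without WT replicate 3. The cause of these differences was not tested. No paired analysis was possible because the title numbers are not shared between the genotypes and the replicate numbers were given in deposit order. Nkx3-2 had 103 to 261 counts per library and an SE of 0.29, and Sox9, with 10836 to 17898 counts per library, had an SE of 0.23. In simulation, with spread from the fitted trend alone, 77.4% of 2-fold changes were recovered, which may not hold for these libraries.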
